A study of Mus musculus with 6 samples.

Results

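The lysosome is the acidic, membrane-bound compartment in which cells break down protein, glycan and lipid, and 32 genes of that compartment and of the proton pump that acidifies it were followed here in RW4 mouse embryonic stem cells given 4-hydroxytamoxifen (4OHT) or Shld1. The 32 genes were a named list: membrane proteins and channels, proteases, glycosidases, proteins that handle lipids, subunits of the proton pump, and the regulators and autophagy genes Tfeb, Tfe3, Sqstm1 and Gpnmb. All 32 were measured among 19938 genes, each by 1 probe set, and no member depended on a probe set annotated with several genes. The 31 members other than Gpnmb lay above the background level of 3.73 (log2 signal). That level is the 95th percentile of the mean signals of 1015 olfactory receptor genes, a family expressed in sensory neurons.

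The 6 arrays held 3 groups of 2: RW4 cells given 1 µM 4OHT, whose induction system the labels name as ERT2, cells given 1 µM Shld1, whose system they name as FKBP, and untreated cells, labelled WT. RW4 is a line of mouse embryonic stem cells, and all groups were grown with leukemia inhibitory factor at 1000 U/mL and calf and fetal bovine serum at 10% each. ERT2 is a mutated estrogen receptor domain that responds to 4OHT, and Shld1 is a ligand that keeps FKBP-tagged proteins of the destabilised kind from being degraded. The labels name no fusion protein in these cells and no length of treatment. Each group is described as in duplicate, with no word on separate cultures, so the spread behind each p-value may be technical only.

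A proton pump, the V-ATPase, drives hydrogen ions into the lysosome and so gives its hydrolases the acid pH they need. Hydrolases are sorted there after they are tagged with mannose 6-phosphate or carried by other receptors, and heavily glycosylated membrane proteins such as LAMP1 and LAMP2 line the inner face of the membrane. TFEB and TFE3 are transcription factors that are held in the cytoplasm while mTORC1 is active on the lysosome, and that enter the nucleus and switch on lysosomal and autophagy genes when it is not. 4OHT is a cationic amphiphilic drug, a lipid-soluble amine of a kind that collects in acidic compartments. Such drugs are known to cause phospholipid storage in lysosomes. Shld1 was the other inducer of the series, tested at the same 1 µM.

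The labelled cell type could be checked from its markers. All 8 stem cell markers, Pou5f1, Sox2, Nanog, Esrrb, Zfp42, Dppa5a, Tdgf1 and Utf1, lay between 8.61 and 12.13 on every array. Of 8 markers of macrophages, a cell type rich in lysosomes, 0 had a mean over all 6 arrays above background. Lyz2, Ptprc, Adgre1 and Csf1r stayed between 2.11 and 3.33. Single arrays did pass the background level of 3.73. C1qa reached 4.06 in 4OHT replicate 1, and its 4OHT mean was 3.89. Fcgr3 reached 3.82 in 4OHT replicate 2 and 3.91 in Shld1 replicate 2. Wholly above the untreated arrays lay 3 of the 8 with 4OHT (17.3% of all genes) and 1 with Shld1 (15.2% of all genes). Wholly below them lay 0 with 4OHT and 1 with Shld1. Fibroblast and endoderm markers were partly above background, 5 of 8 and 8 of 10, with Dab2 and Gata6 the brightest endoderm markers. Of the 10 endoderm markers, 4 lay wholly above the untreated arrays with 4OHT and 0 below (20.4% of all genes). For Shld1, 4 lay above and 2 below (17.3% of all genes). By limma 1 endoderm marker was higher with Shld1 at an unadjusted p under 0.05 (2.41% of all genes). Fibroblast markers had 1 above and 1 below with 4OHT, and 1 and 0 with Shld1. Medians of the endoderm markers from the untreated mean were 0.08 and 0.08 on the 4OHT arrays, and 0.09 and 0.08 on the Shld1 arrays. In bulk RNA, fewer cells of a type and less RNA per cell cannot be told apart. Array 4OHT replicate 1 and array Shld1 replicate 2 held their signals in a narrower range, with SDs of 2.29 and 2.24 over all probe sets, against at least 2.33 on each of the other 4. Limma called 0 markers of any of these cell types in either comparison with untreated cells.

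With 4OHT, no lysosomal gene differed from untreated cells by more than the test allows, and Neu1 and Tfeb stood furthest from it. Limma called 0 of 32 members and 0% of all 19938 genes, with a smallest adjusted p among members of 0.96. At an unadjusted p under 0.05, which 4.99% of all genes had, 1 member was lower (Neu1; 2.42% of all genes met the same rule) and 1 was higher (Tfeb; 2.57% of all genes). Small negative differences were common: 27 of 32 members had a log2 difference below 0, where 52.2% of all genes did, and the median was -0.09 over the members and -0.0092 over all genes. All genes include many at background. Without the dimmest 40% of genes, the median was -0.09 over the 31 members left and -0.04 over all genes left. The 4OHT and untreated arrays did not overlap at 13 members (37.7% of all genes): the 4OHT arrays lay below at 10 (20.4% of all genes) and above at 3 (17.3% of all genes). Those 10 were Ctsb, Ctsd, Gaa, Neu1, Npc1, Psap, Lipa, Smpd1, Asah1 and Atp6v1h, and the 3 were Tpp1, Atp6v1a and Tfeb.

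With Shld1, the lysosomal genes also stayed near the untreated level. Limma called 0 of 32 members and 0% of all genes (smallest adjusted p among members 0.999), and 0 members had an unadjusted p under 0.05, which 4.34% of all genes had. The largest differences, those of Npc2 at -0.22 and Ctsd at -0.20, came with standard errors of 0.18 and 0.16. A log2 difference below 0 was found for 26 of 32 members and for 51.1% of all genes, with a median of -0.07 over the members and -0.0043 over all genes. Without the dimmest 40% of genes, the medians were -0.07 over the 31 members left and -0.03 over all genes left. The Shld1 arrays lay wholly below the untreated arrays at 4 members, Lamp2, Ctsl, Neu1 and Atp6v1h (17.3% of all genes), and wholly above them at 0 (15.2% of all genes). The comparisons of 4OHT and of Shld1 share the untreated arrays, so their like signs are not independent.

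**Figure D1:**
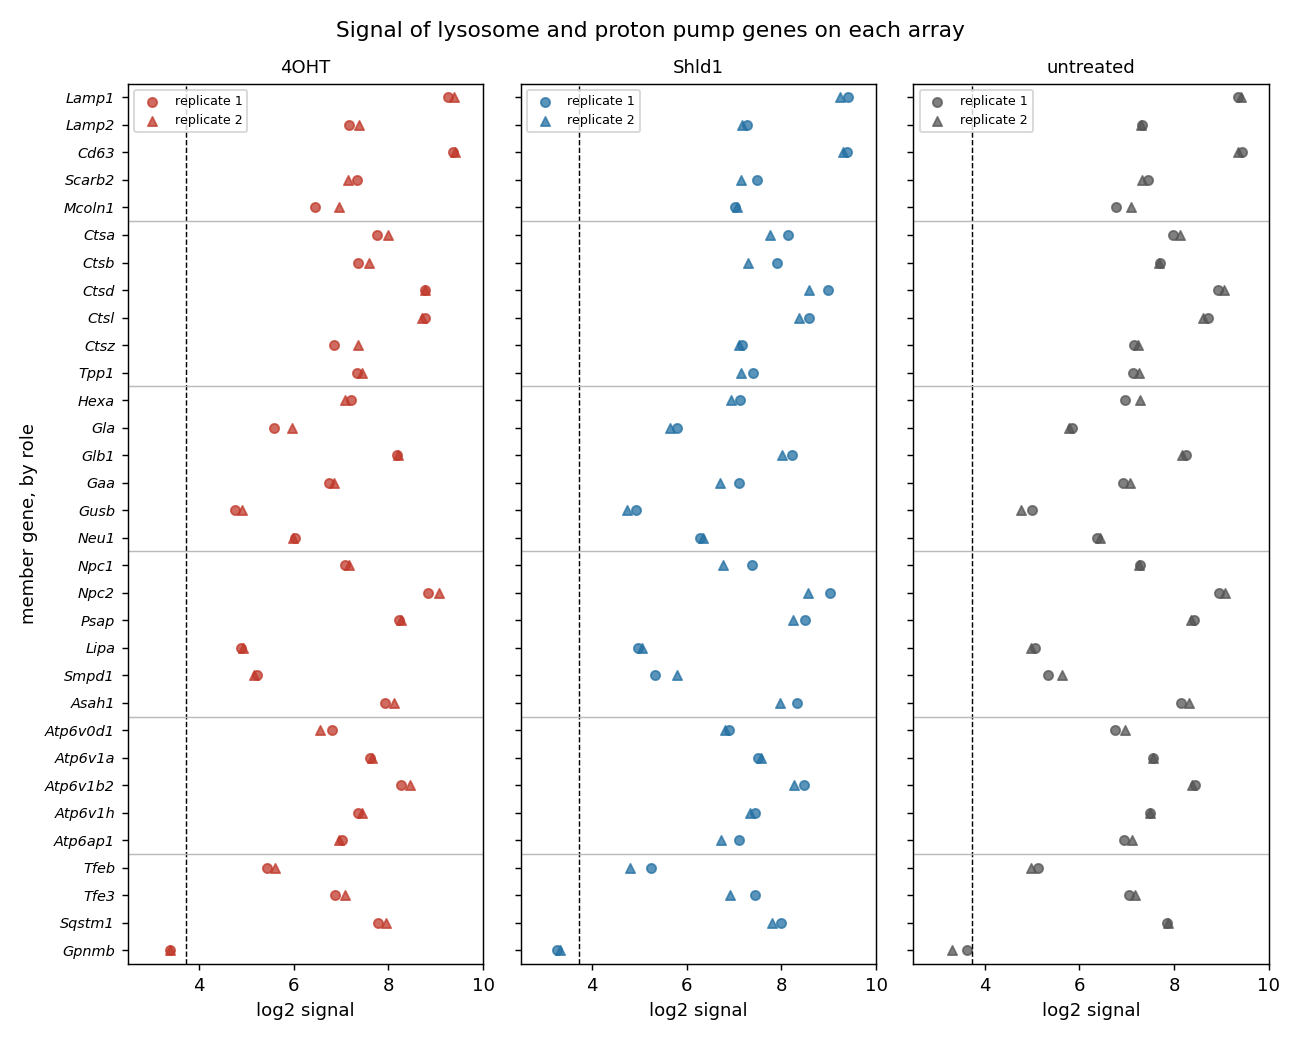
Log2 signal (horizontal axis) of each of the 32 member genes (rows, grouped by role between grey lines) on the 2 arrays of the 4OHT, Shld1 and untreated groups; circles are replicate 1, triangles replicate 2, and the dashed line is the background level of 3.73. The 3 panels have nearly the same profile, and Gpnmb is the 1 gene left of the dashed line.

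The negative medians went with single arrays. Measured from the untreated mean, the median over the 32 members was -0.14 on 4OHT replicate 1 and -0.15 on Shld1 replicate 2, the arrays of narrower range, but -0.03 on 4OHT replicate 2 and 0.04 on Shld1 replicate 1. On 4OHT replicate 1, 26 of 32 members were below the untreated mean, and on Shld1 replicate 2, 28 of 32. On 4OHT replicate 2 the count was 19 of 32, and on Shld1 replicate 1 it was 12 of 32. The 12815 genes above background showed the same order at a smaller size: -0.07 on 4OHT replicate 1 and -0.08 on Shld1 replicate 2, and -0.0068 and 0.01 on the other treated arrays. Of these 12815 genes, 7837 were below the untreated mean on 4OHT replicate 1 and 8153 on Shld1 replicate 2. The counts were 6645 on 4OHT replicate 2 and 5992 on Shld1 replicate 1. The 8 stem cell markers had medians of -0.04 and 0.05 on 4OHT replicates 1 and 2, and of 0.04 and -0.15 on Shld1 replicates 1 and 2. The 8 macrophage markers, whose means over all 6 arrays were below background, had medians of 0.09 and 0.07 on 4OHT replicates 1 and 2. Their medians were -0.01 and 0.10 on Shld1 replicates 1 and 2. In each of the 6 roles of the members, Shld1 replicate 2 had the lowest median of the arrays, from -0.14 for the proton pump and -0.15 for the membrane proteins to -0.28 for the proteases. Without the narrower arrays the median over the members was -0.03 with 4OHT, with 19 of 32 below 0, and 0.04 with Shld1, with 12 of 32 below 0. Quantile normalization, which gives every array the same distribution, left 21 of 32 members below 0 with 4OHT (median -0.06) and 22 of 32 with Shld1 (median -0.03).

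**Figure D2:**
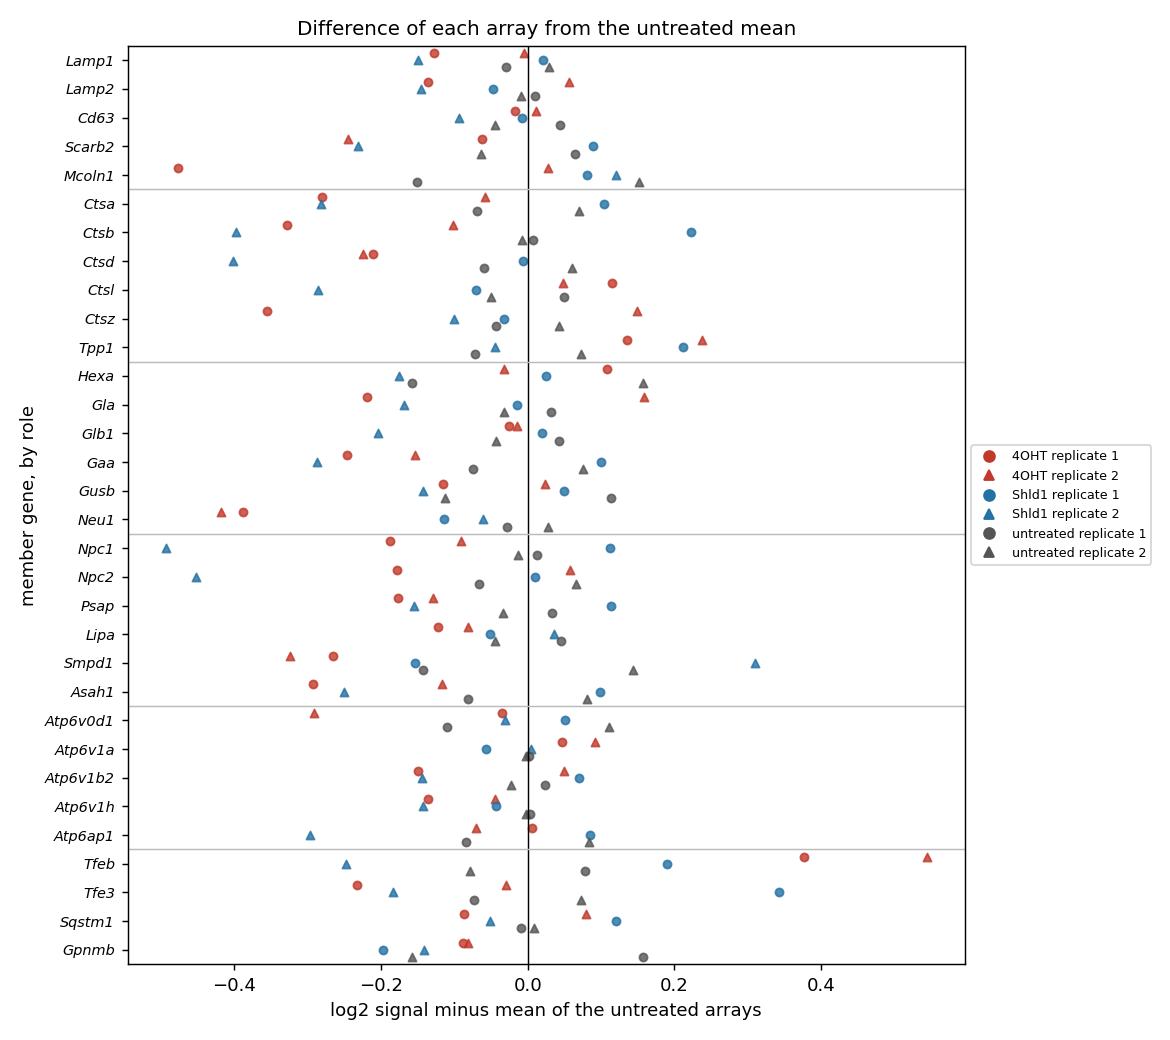
Log2 signal on each array minus the mean of the untreated arrays (horizontal axis) for each member gene (rows, by role); red is 4OHT, blue Shld1 and grey untreated, circles replicate 1 and triangles replicate 2. The blue triangles lie left of 0 for 28 of 32 genes and the blue circles for 12 of 32, while both red points lie far left for Neu1 and far right for Tfeb.

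Among the regulators, Tfeb had the largest positive difference of any member with 4OHT. Its signal (probe set 10445729) was 5.43 and 5.60 with 4OHT and 5.24 and 4.80 with Shld1, against 5.13 and 4.97 in untreated cells. The 4OHT arrays were the 2 highest of the 6 and did not overlap either other group. The log2 difference of 4OHT from untreated was 0.46 (SE 0.18), a 1.38-fold ratio, with a 95% interval of 0.07 to 0.85. By limma the unadjusted p was 0.0258 and the adjusted p 0.96, short of the threshold of 0.05. Leaving out 1 array at a time gave differences between 0.38 and 0.54. In groups of 2 arrays, such a range restates the gaps within the pairs. With Shld1 the Tfeb difference was -0.03 (SE 0.18), and the Shld1 arrays fell on either side of the untreated ones.

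Tfe3, the paralog of Tfeb whose nuclear form is known to hold mouse stem cells in the naive state, had signals of 6.88 and 7.08 with 4OHT and 7.45 and 6.93 with Shld1, against 7.04 and 7.18 in untreated cells. The spread within the Shld1 pair exceeded every difference between group means, which were -0.13 (SE 0.19) with 4OHT and 0.08 (SE 0.19) with Shld1. Sqstm1, which encodes the autophagy receptor p62 and is a target of TFEB, was at 7.78 and 7.94 with 4OHT and 7.98 and 7.81 with Shld1, against 7.85 and 7.87 in untreated cells. The 3 groups overlapped, and the differences were -0.0032 (SE 0.15) with 4OHT and 0.03 (SE 0.15) with Shld1. Gpnmb, a membrane glycoprotein that macrophages induce when their lysosomes are stressed, was not above background in any group, at 3.38 and 3.39 with 4OHT and 3.27 and 3.33 with Shld1, against 3.63 and 3.31 in untreated cells. Its differences of -0.08 with 4OHT and -0.17 with Shld1 are limited by that background, and the Shld1 value was -0.01 without untreated replicate 1.

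TFEB and TFE3 bind a palindrome, CACGTG, that is frequent near the starts of lysosomal genes, and the letters of the member promoters were therefore searched for it. RefSeq (build GRCm38.p6) gave 32 promoter windows for 27 of the 32 members, each from 250 bases before to 50 after an annotated start. CACGTG, which reads the same on both strands, was in 10 of the 32 windows (31.2%), against 7.15% of all 32851 windows of the same length. The extension CACGTGA, searched on both strands and always overlapping the core, was in 9 of the 32 windows (28.1%), against 3.77% of all windows. The 10 genes were Lamp1, Mcoln1, Ctsa, Ctsd, Ctsl, Gaa, Gla, Glb1, Atp6v0d1 and Atp6v1a, and their matches are a description of letters, not of binding. Neither Neu1 nor any of the 3 Tfeb windows held the core. Over the 10 members with the core, the median log2 difference was -0.12 with 4OHT and -0.09 with Shld1, and over the 17 members whose windows lacked it, -0.06 and -0.05. Over the 5 members with no window, for which the core could not be looked up, the medians were -0.14 and -0.09. On 4OHT replicate 1, the medians were -0.17 with the core, -0.12 without it and -0.19 where no window was given. On 4OHT replicate 2, which does not have the narrower range, they were -0.01, -0.03 and -0.09. A link between the core and these differences was not tested.

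**Figure D3:**
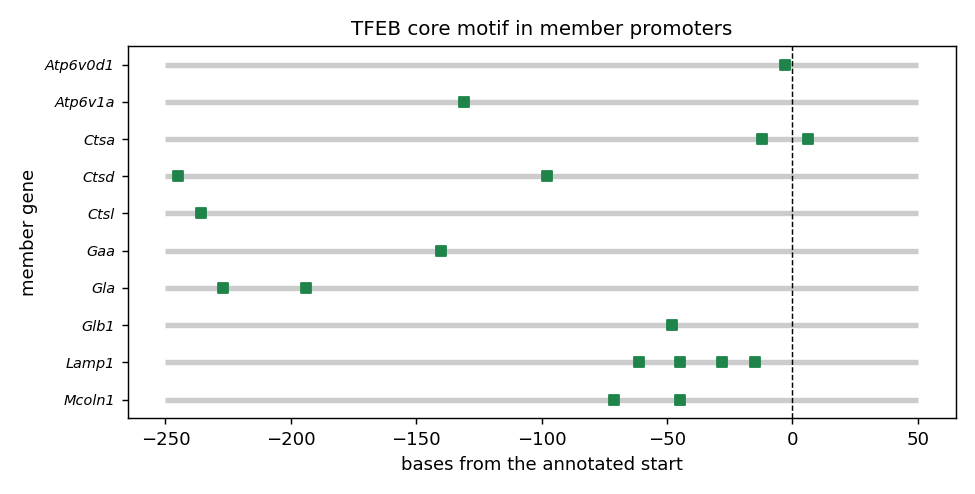
Positions of the TFEB core motif (green squares) in the promoter windows of the 10 members that hold it, in bases from the annotated start (horizontal axis, dashed line at the start); grey bars span the window searched. Lamp1 has 4 cores, all within 61 bases before its start.

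The 5 windows with more than 1 core, and that of Neu1, are printed 5′ to 3′ on the strand of the gene, in lower case with each core in capitals. Lamp1 has 4 cores (chr8:13158911-13159210, plus strand), whose first bases lie at -61, -45, -28 and -15 from its start. Mcoln1 has 2 (chr8:3500269-3500568, plus strand), at -71 and -45. Ctsa has 2 on either side of one of its starts (chr2:164833523-164833822, plus strand), at -12 and 6, and Ctsd has 2 (chr7:142387778-142388077, minus strand), at -245 and -98. Gla has 2 further from its start (chrX:134600956-134601255, minus strand), at -227 and -194. Neu1, the member with the smallest p, has none (chr17:34931003-34931302, plus strand) and is given for comparison.
Lamp1: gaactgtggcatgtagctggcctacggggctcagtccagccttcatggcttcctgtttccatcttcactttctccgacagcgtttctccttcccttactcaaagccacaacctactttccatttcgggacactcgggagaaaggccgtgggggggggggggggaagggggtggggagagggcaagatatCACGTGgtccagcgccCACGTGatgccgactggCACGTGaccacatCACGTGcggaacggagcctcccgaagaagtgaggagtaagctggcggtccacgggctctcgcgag
Mcoln1: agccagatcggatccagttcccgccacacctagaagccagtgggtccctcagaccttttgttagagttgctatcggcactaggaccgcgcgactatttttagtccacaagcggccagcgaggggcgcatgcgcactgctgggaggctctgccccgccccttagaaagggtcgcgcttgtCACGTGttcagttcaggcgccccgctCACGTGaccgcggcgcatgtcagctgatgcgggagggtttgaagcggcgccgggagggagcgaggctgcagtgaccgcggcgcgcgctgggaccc
Ctsa: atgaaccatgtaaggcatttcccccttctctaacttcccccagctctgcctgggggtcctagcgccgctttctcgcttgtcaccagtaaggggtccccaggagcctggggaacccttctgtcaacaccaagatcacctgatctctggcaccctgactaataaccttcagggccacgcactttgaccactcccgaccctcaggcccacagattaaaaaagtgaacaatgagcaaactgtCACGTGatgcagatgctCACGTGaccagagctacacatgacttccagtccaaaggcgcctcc
Ctsd: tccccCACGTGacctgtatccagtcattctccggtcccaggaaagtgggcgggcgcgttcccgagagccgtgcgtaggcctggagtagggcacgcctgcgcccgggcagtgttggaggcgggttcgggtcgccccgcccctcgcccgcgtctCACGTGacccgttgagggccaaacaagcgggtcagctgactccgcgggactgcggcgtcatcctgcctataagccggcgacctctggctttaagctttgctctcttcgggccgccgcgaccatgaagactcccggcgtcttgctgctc
Gla: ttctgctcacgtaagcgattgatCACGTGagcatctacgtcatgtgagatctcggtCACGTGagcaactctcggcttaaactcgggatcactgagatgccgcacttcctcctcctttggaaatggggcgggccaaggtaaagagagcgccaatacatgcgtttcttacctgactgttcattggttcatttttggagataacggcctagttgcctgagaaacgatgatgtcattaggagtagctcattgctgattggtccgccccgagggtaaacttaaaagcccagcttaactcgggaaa
Neu1: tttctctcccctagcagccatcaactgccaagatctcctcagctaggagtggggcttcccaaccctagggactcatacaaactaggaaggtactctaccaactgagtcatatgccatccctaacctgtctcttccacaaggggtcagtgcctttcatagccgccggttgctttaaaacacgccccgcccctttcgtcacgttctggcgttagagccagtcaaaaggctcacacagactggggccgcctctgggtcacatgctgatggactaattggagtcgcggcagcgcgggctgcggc

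The membrane proteins and channels differed little. All 5 had log2 differences below 0 with 4OHT and 4 of 5 with Shld1, but the largest difference was -0.22 and the 4OHT arrays overlapped the untreated ones for every one. Lamp1, a main structural glycoprotein of the lysosomal membrane and the gene with 4 promoter cores, was at 9.25 and 9.37 with 4OHT and 9.40 and 9.23 with Shld1, against 9.35 and 9.41 in untreated cells. Lamp2, its paralog and the receptor of chaperone-mediated autophagy in one of its isoforms, was at 7.18 and 7.37 with 4OHT and 7.27 and 7.17 with Shld1, against 7.32 and 7.30 in untreated cells. Both Shld1 arrays were below both untreated arrays for Lamp2, at a difference of -0.10 (SE 0.14). Cd63, a tetraspanin of late endosomes and exosomes, had signals of 9.37 and 9.40 with 4OHT and 9.38 and 9.29 with Shld1, against 9.43 and 9.34 in untreated cells, and its 4OHT difference of -0.0029 (SE 0.14) was the smallest in size of all members.

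Scarb2 encodes LIMP-2, a membrane protein that also serves as a sorting receptor. It was at 7.33 and 7.14 with 4OHT and 7.48 and 7.16 with Shld1, against 7.45 and 7.32 in untreated cells, with differences of -0.15 (SE 0.16) with 4OHT and -0.07 (SE 0.16) with Shld1. Mcoln1, the calcium channel TRPML1 whose opening leads to activation of TFEB, had the widest 4OHT pair of the group, at 6.46 and 6.96 with 4OHT and 7.02 and 7.06 with Shld1, against 6.78 and 7.09 in untreated cells. Only 4OHT replicate 1 lay below the untreated arrays, and the difference of -0.22 (SE 0.19) had a 95% interval of -0.65 to 0.20.

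The proton pump genes differed little with either agent. Atp6v1a, the catalytic subunit of the cytoplasmic V1 sector, was at 7.61 and 7.65 with 4OHT and 7.5 and 7.57 with Shld1, against 7.56 and 7.56 in untreated cells. Its 4OHT arrays were just above its untreated arrays, which were nearly equal, and the difference was 0.07 (SE 0.14). Atp6v1b2, the non-catalytic subunit that alternates with it, was at 8.26 and 8.46 with 4OHT and 8.48 and 8.26 with Shld1, against 8.43 and 8.38 in untreated cells and overlapped in all groups. Atp6v1h, a regulatory subunit of V1, was at 7.36 and 7.45 with 4OHT and 7.45 and 7.35 with Shld1, against 7.49 and 7.49 in untreated cells. All 4 treated arrays were below both untreated arrays for Atp6v1h, with differences of -0.09 (SE 0.14) with 4OHT and -0.09 (SE 0.14) with Shld1.

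Atp6v0d1, which links V1 to the membrane sector V0, had signals of 6.82 and 6.56 with 4OHT and 6.90 and 6.82 with Shld1, against 6.74 and 6.96 in untreated cells. Here 4OHT replicate 2, not the array of narrower range, was the lowest of the 6. Atp6ap1, the accessory subunit Ac45, was at 7.02 and 6.95 with 4OHT and 7.10 and 6.72 with Shld1, against 6.93 and 7.10 in untreated cells, with Shld1 replicate 2 the lowest. For the 5 pump genes the 95% intervals lay within 1.5-fold of no change in both comparisons, and the differences ran from -0.16 to 0.07 with 4OHT and from -0.11 to 0.01 with Shld1.

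Of the 6 proteases, 4 had negative and 2 positive log2 differences with 4OHT, and 5 had negative ones with Shld1. Ctsd, the aspartic protease cathepsin D, was at 8.78 and 8.76 with 4OHT and 8.98 and 8.58 with Shld1, against 8.93 and 9.05 in untreated cells. Both 4OHT arrays lay below both untreated arrays, and the difference was -0.22 (SE 0.16) with a 95% interval of -0.58 to 0.15 (limma, adjusted p = 0.961). With Shld1 the mean of Ctsd was as low, a difference of -0.20 (SE 0.16), but it rested on replicate 2, without which it was -0.0058. Ctsb, the cysteine protease cathepsin B, was at 7.36 and 7.58 with 4OHT and 7.91 and 7.29 with Shld1, against 7.69 and 7.68 in untreated cells. The untreated arrays were almost equal and both 4OHT arrays lay below them, a difference of -0.21 (SE 0.20), while the Shld1 arrays spread to either side.

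Ctsl, cathepsin L, ran the other way with 4OHT, at 8.77 and 8.71 with 4OHT and 8.59 and 8.37 with Shld1, against 8.71 and 8.61 in untreated cells. Its differences were 0.08 (SE 0.15) with 4OHT and -0.18 (SE 0.15) with Shld1, and both Shld1 arrays were below both untreated arrays. The Shld1 value was -0.07 without Shld1 replicate 2 and -0.29 without Shld1 replicate 1. Tpp1, the tripeptidyl peptidase lost in a childhood form of neuronal ceroid lipofuscinosis, was at 7.33 and 7.43 with 4OHT and 7.41 and 7.15 with Shld1, against 7.12 and 7.27 in untreated cells. Both 4OHT arrays were above both untreated arrays for Tpp1, by 0.19 (SE 0.15). Ctsa, the carboxypeptidase that also protects Neu1 and Glb1 in a complex, was at 7.77 and 7.99 with 4OHT and 8.15 and 7.76 with Shld1, against 7.98 and 8.12 in untreated cells, and its groups overlapped. Ctsz, a carboxypeptidase, had the widest gap between 4OHT arrays of the proteases, at 6.85 and 7.35 with 4OHT and 7.17 and 7.10 with Shld1, against 7.16 and 7.25 in untreated cells.

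The glycosidases held the member with the smallest p. Neu1, the lysosomal sialidase that removes sialic acid from glycoproteins and glycolipids, was at 6.02 and 5.99 with 4OHT and 6.29 and 6.35 with Shld1, against 6.38 and 6.43 in untreated cells (probe set 10444578). The 4OHT arrays were the 2 lowest of the 6, close to each other, and neither the Shld1 nor the untreated arrays reached them. The log2 difference was -0.40 (SE 0.14), a ratio of 0.756, with a 95% interval of -0.71 to -0.10. By limma the unadjusted p was 0.0149 and the adjusted p over all genes 0.96, and leaving out 1 array at a time gave differences between -0.43 and -0.37. That range, too, restates the gaps within the pairs. With Shld1 the difference of Neu1 was -0.09 (SE 0.14), and both Shld1 arrays lay between the 4OHT and the untreated arrays. Its partners in the complex, Ctsa and Glb1, differed by -0.17 (SE 0.17) and -0.02 (SE 0.15) with 4OHT.

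Glb1, the lysosomal beta-galactosidase, was at 8.19 and 8.20 with 4OHT and 8.24 and 8.01 with Shld1, against 8.26 and 8.17 in untreated cells. The 4OHT arrays were almost the same as the untreated ones, and Shld1 replicate 2 was lowest. Hexa, the gene lost in Tay-Sachs disease, was at 7.22 and 7.08 with 4OHT and 7.14 and 6.94 with Shld1, against 6.95 and 7.27 in untreated cells, and the treated arrays lay within or just below the untreated pair. Gaa, the acid alpha-glucosidase that degrades glycogen, was at 6.75 and 6.85 with 4OHT and 7.10 and 6.71 with Shld1, against 6.93 and 7.08 in untreated cells. Both 4OHT arrays were below both untreated arrays for Gaa, a difference of -0.20 (SE 0.17). Gla, the alpha-galactosidase A that degrades globotriaosylceramide, was at 5.59 and 5.97 with 4OHT and 5.80 and 5.64 with Shld1, against 5.85 and 5.78 in untreated cells, with the 4OHT arrays on either side of the untreated ones. Gusb, beta-glucuronidase, was at 4.77 and 4.91 with 4OHT and 4.94 and 4.74 with Shld1, against 5.0 and 4.77 in untreated cells and overlapped in all groups.

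The genes of lipid handling all had negative log2 differences with 4OHT, 6 of 6, with a median of -0.15, and at 5 of the 6 the 4OHT arrays lay below both untreated arrays, as they did at 20.4% of all genes. Their median was -0.18 on 4OHT replicate 1 and -0.10 on 4OHT replicate 2, and 0.05 and -0.20 on the Shld1 arrays. Both 4OHT medians were also below 0 for the proteases (-0.25 and -0.0051), the glycosidases (-0.17 and -0.02) and the proton pump (-0.03 and -0.05). On 4OHT replicate 2, the medians of the membrane proteins and of the regulators and autophagy genes were above 0, at 0.01 and 0.02. Smpd1, the acid sphingomyelinase, whose protein cationic amphiphilic drugs are known to displace from the lysosomal membrane, was at 5.22 and 5.16 with 4OHT and 5.33 and 5.79 with Shld1, against 5.34 and 5.63 in untreated cells. The 4OHT arrays were the 2 lowest of the 6, at a difference of -0.29 (SE 0.18) and a 95% interval of -0.70 to 0.12 (limma, adjusted p = 0.96). The untreated arrays were themselves apart, and the difference was -0.44 without untreated replicate 1 and -0.15 without untreated replicate 2. Asah1, the acid ceramidase that acts on the product of Smpd1, was at 7.93 and 8.11 with 4OHT and 8.33 and 7.98 with Shld1, against 8.15 and 8.31 in untreated cells. Its 4OHT arrays lay below its untreated arrays, a difference of -0.21 (SE 0.17), which was -0.12 without 4OHT replicate 1 or untreated replicate 2.

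Npc1 and Npc2 pass cholesterol out of the lysosome, Npc2 within the lumen and Npc1 at the membrane. Npc1 was at 7.08 and 7.17 with 4OHT and 7.38 and 6.77 with Shld1, against 7.28 and 7.25 in untreated cells. Its differences were -0.14 (SE 0.19) with 4OHT and -0.19 (SE 0.19) with Shld1, and the Shld1 value rested on replicate 2, without which it was 0.11. Npc2 was at 8.83 and 9.07 with 4OHT and 9.02 and 8.56 with Shld1, against 8.94 and 9.08 in untreated cells. Its differences were -0.06 (SE 0.18) with 4OHT and -0.22 (SE 0.18) with Shld1, and without Shld1 replicate 2 the Shld1 value was 0.0097. Both genes had their lowest signal of the 6 arrays on Shld1 replicate 2.

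Lipa, the acid lipase that frees cholesterol from its esters, was at 4.90 and 4.94 with 4OHT and 4.97 and 5.06 with Shld1, against 5.07 and 4.98 in untreated cells. The 4OHT difference was -0.10 (SE 0.14) and the Shld1 difference -0.01 (SE 0.14). Psap, the precursor of the saposins that present glycolipids to hydrolases, was at 8.22 and 8.26 with 4OHT and 8.51 and 8.24 with Shld1, against 8.43 and 8.36 in untreated cells. Its 4OHT arrays were below its untreated arrays, a difference of -0.15 (SE 0.15), and its Shld1 arrays overlapped them.

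**Figure D4:**
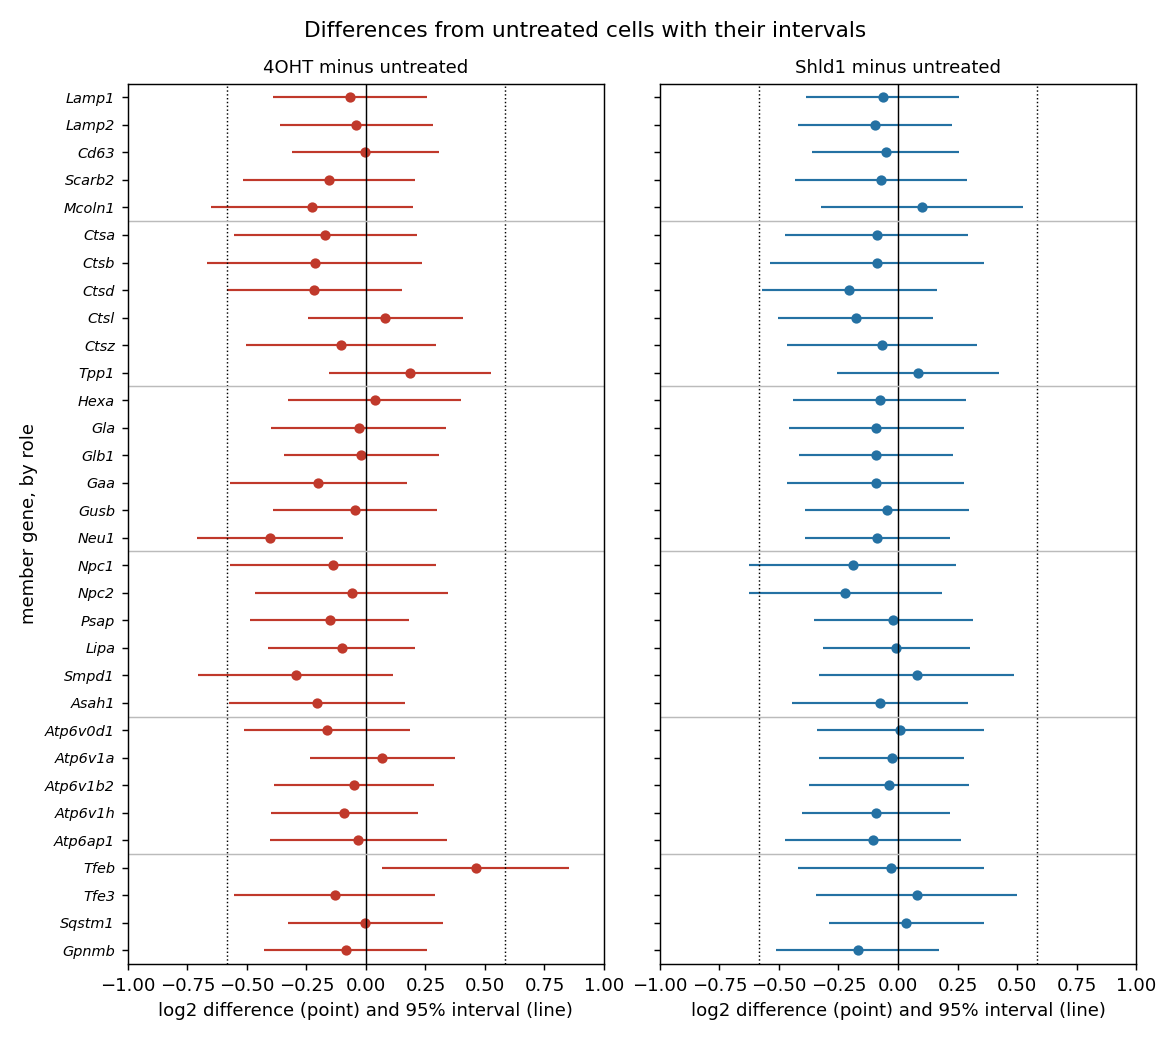
Log2 difference from untreated cells (points) with its 95% interval from limma (lines) for each member gene (rows, by role), 4OHT on the left and Shld1 on the right; dotted lines mark 1.5-fold either way. The interval leaves out 0 for Neu1 and Tfeb with 4OHT and for no member with Shld1.

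The intervals give the precision of each difference, as far as the spread between duplicate arrays shows it. That spread may be technical only, so the intervals do not bound a biological change. With 4OHT, the 95% interval lay within 2-fold of no change for 32 of 32 members and within 1.5-fold for 27 of 32, where 98.8% and 72.1% of all genes did. The 5 beyond 1.5-fold were Tfeb, Neu1, Smpd1, Ctsb and Mcoln1. With Shld1 the interval lay within 2-fold for 32 of 32 and within 1.5-fold for 30 of 32, where 98.7% and 74.3% of all genes did, and the other 2 were Npc1 and Npc2. Each interval covers its own gene only, with no allowance for the many genes tested or for a change of a whole array.

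When the agents were set against each other at 1 µM, Tfeb and Neu1 were the members of smallest p, as with 4OHT against untreated cells. Both comparisons use the same 4OHT arrays, so the repeat is not independent. Tfeb was at 5.51 ± 0.12 with 4OHT and 5.02 ± 0.31 with Shld1 (SD, n = 2 each), a log2 difference of 0.49 (SE 0.18) with a 95% interval of 0.10 to 0.88 (limma, adjusted p = 0.871). Neu1 was at 6.0 ± 0.02 with 4OHT and 6.32 ± 0.04 with Shld1 (SD, n = 2 each), a difference of -0.32 (SE 0.14) with a 95% interval of -0.62 to -0.01 (limma, adjusted p = 0.873). The Tfeb difference was 0.27 without Shld1 replicate 2 and 0.71 without Shld1 replicate 1. That of Neu1 ran from -0.34 to -0.29 when arrays were left out in turn. These ranges restate the gaps within the pairs and are no separate evidence. Smpd1 differed by -0.37 (SE 0.18), but by -0.14 without Shld1 replicate 2 and by -0.60 without Shld1 replicate 1. Ctsl differed by 0.26 (SE 0.15), and by 0.15 without Shld1 replicate 2. Mcoln1 differed by -0.33 (SE 0.19), with its 4OHT arrays apart at 6.46 and 6.96. Limma called 0 of 32 members and 0% of all genes. At an unadjusted p under 0.05, Tfeb was the 1 member higher with 4OHT (2.5% of all genes) and Neu1 the 1 member lower (3.1% of all genes). The interval of this difference lay within 2-fold of no change for 32 of 32 members and within 1.5-fold for 26 of 32, where 98.5% and 71.6% of all genes did. The median over the members was -0.0073, with 17 of 32 below 0, against 50.9% of all genes.

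Beyond the 32, 114 further genes of the same compartment were measured, in 6 lists: other pump subunits, hydrolases and membrane proteins, enzyme sorting, nutrient sensing at the lysosome, and autophagy. Limma called 0 of the 114 in either comparison with untreated cells. With 4OHT, 4 were higher (2.57% of all genes) and 1 lower (2.42% of all genes) at an unadjusted p under 0.05, and 73 of 114 had a log2 difference below 0, with a median of -0.05. With Shld1, 1 was higher (2.41% of all genes) and 2 were lower (1.94% of all genes), 69 of 114 were below 0 and the median was -0.05. Over all genes, 52.2% were below 0 with 4OHT and 51.1% with Shld1, the shares to set beside the counts of each list below. Wholly below the untreated arrays lay 32 of the 114 with 4OHT (20.4% of all genes) and 25 with Shld1 (17.3% of all genes). Wholly above lay 19 with 4OHT (17.3% of all genes) and 17 with Shld1 (15.2% of all genes). Genes wholly below and wholly above with 4OHT numbered 4 and 9 for hydrolases, 7 and 4 for membrane proteins, and 3 and 2 for enzyme sorting. Nutrient sensing and autophagy each had 4 and 1. In the same order, Shld1 gave 5 and 7, 6 and 1, 3 and 1, 5 and 2, 3 and 3. By array the median over the 114 was -0.07 and -0.0098 on the 4OHT arrays and 0.05 and -0.13 on the Shld1 arrays. The arrays of narrower range were the lowest over the 114, but not in each list. Among the further membrane proteins the medians were -0.07 on 4OHT replicate 1 and -0.08 on 4OHT replicate 2.

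**Figure D5:**
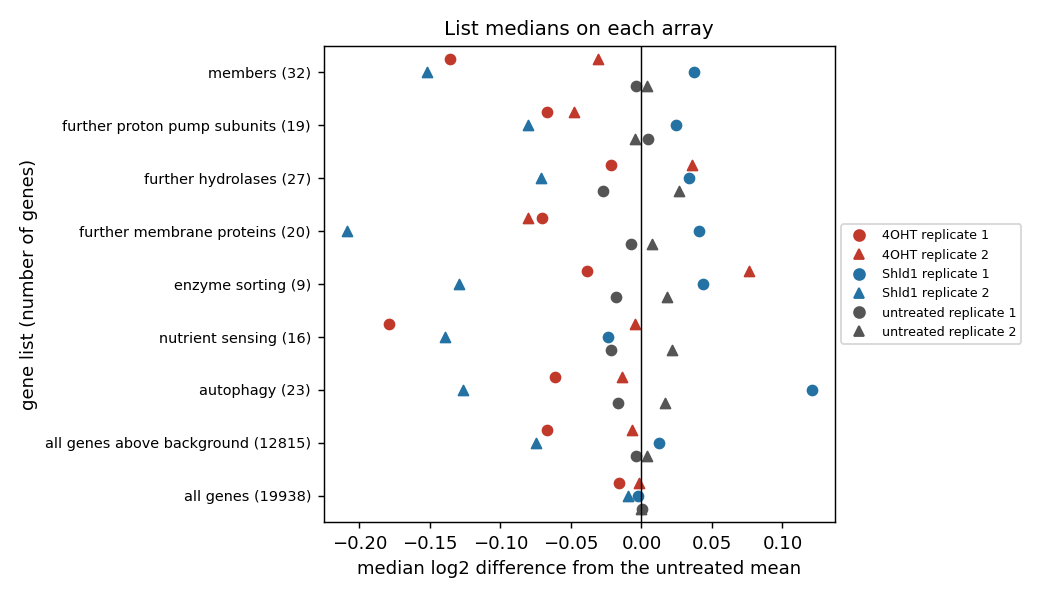
Median log2 difference from the untreated mean (horizontal axis) on each array, for the members, the 6 further lists, all genes above background and all genes (rows, number of genes in brackets); colours and symbols mark group and replicate. The blue triangle, Shld1 replicate 2, is the leftmost or next to leftmost point in the rows of the members, the further lists and the genes above background.

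Among the 19 further pump subunits, 12 were below 0 with 4OHT and 11 with Shld1. The 4OHT arrays lay wholly below the untreated ones at 10 of the 19 (20.4% of all genes) and wholly above at 2 (17.3% of all genes). The Shld1 arrays lay wholly below at 3 (17.3% of all genes) and wholly above at 3 (15.2% of all genes). Atp6v1g2, a V1 subunit form known from neurons, stood out with 4OHT, at 5.15 and 5.20 with 4OHT, against 4.79 and 4.59 in untreated cells. The 4OHT arrays were clear of the untreated ones, by 0.48 (SE 0.15) (limma, adjusted p = 0.96), and the Shld1 difference was -0.03 (SE 0.15). Atp6v0b, part of the proton-carrying ring, was at 7.26 and 7.38 with 4OHT, against 7.63 and 7.55 in untreated cells, a difference of -0.27 (SE 0.14), and Atp6v1g3, below background, differed by 0.33 (SE 0.16). With Shld1 the largest statistics belonged to Atp6v0a4 at -0.26 (SE 0.15), Atp6v1c2 at 0.22 (SE 0.14) and Atp6v0a1 at -0.21 (SE 0.16).

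Of 27 further hydrolases, 14 were below 0 with 4OHT and 15 with Shld1. Ctso, a cysteine cathepsin, had the largest statistic with either agent, at 3.09 and 2.75 with 4OHT and 3.13 and 2.90 with Shld1, against 2.29 and 2.5 in untreated cells. All 6 of these signals are below background, so its differences of 0.53 (SE 0.17) with 4OHT and 0.62 (SE 0.17) with Shld1 are limited by it. Arsb, arylsulfatase B, stood near background at 4.05 and 3.94 with 4OHT, against 3.49 and 3.71 in untreated cells, a difference of 0.39 (SE 0.15). Pla2g15, the lysosomal phospholipase A2, an enzyme that cationic amphiphilic drugs are known to inhibit, was at 4.94 and 4.76 with 4OHT, against 5.06 and 5.13 in untreated cells. It lay lower on both 4OHT arrays, at a difference of -0.24 (SE 0.15). With Shld1, Lgmn, the protease legumain, differed by -0.44 (SE 0.22) and Ctss, cathepsin S, by -0.29 (SE 0.16); Ctss was below background.

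Of 20 further membrane proteins, 13 were below 0 with 4OHT and 14 with Shld1. Slc38a9, the arginine sensor that signals to mTORC1, was at 6.07 and 5.83 with 4OHT, against 6.28 and 6.29 in untreated cells, a difference of -0.34 (SE 0.15). Cln3, the gene of juvenile neuronal ceroid lipofuscinosis, was at 5.42 and 5.59 with 4OHT, against 5.75 and 5.83 in untreated cells, a difference of -0.29 (SE 0.14). Mfsd8, a chloride channel of the lysosome, lay above untreated cells with 4OHT and below them with Shld1, at differences of 0.29 (SE 0.15) with 4OHT and -0.25 (SE 0.15) with Shld1; its Shld1 arrays, at 3.58 and 3.60, were below background, which limits these values. Between the agents Mfsd8 differed by 0.55 (SE 0.15) (limma, adjusted p = 0.844). Slc17a5, the sialic acid exporter, was at 5.42 and 5.06 with Shld1, against 5.71 and 5.67 in untreated cells, a difference of -0.45 (SE 0.16), and the proton channel Tmem175 differed by -0.25 (SE 0.15) with Shld1.

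In enzyme sorting, 5 of 9 genes were below 0 with 4OHT and 6 of 9 with Shld1. Gnptg, a subunit of the transferase that begins the mannose 6-phosphate tag, was at 5.94 and 5.80 with 4OHT and 5.74 and 5.67 with Shld1, against 5.36 and 5.58 in untreated cells. All 4 treated arrays were above both untreated arrays, with differences of 0.40 (SE 0.15) with 4OHT and 0.24 (SE 0.15) with Shld1. Nagpa, which completes the tag, differed by 0.32 (SE 0.16) with 4OHT. Igf2r, the mannose 6-phosphate receptor that carries tagged enzymes, was at 6.30 and 6.39 with 4OHT and 6.33 and 6.33 with Shld1, against 6.63 and 6.52 in untreated cells. All treated arrays were below both untreated arrays for Igf2r, with differences of -0.24 (SE 0.14) with 4OHT and -0.25 (SE 0.14) with Shld1. With Shld1 the sorting receptor gene Sorl1 differed by -0.14 (SE 0.15).

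Of 16 genes of nutrient sensing, 13 were below 0 with 4OHT and 10 with Shld1, and on 4OHT replicate 1 their median was -0.18, against -0.0042 on 4OHT replicate 2. Lamtor1 and Lamtor2 encode parts of the Ragulator complex that anchors mTORC1 to the lysosome, and differed by -0.24 (SE 0.17) and -0.22 (SE 0.14) with 4OHT. Lamtor2 differed by -0.16 (SE 0.14) with Shld1. Tfec, a relative of Tfeb, was below background and differed by -0.32 (SE 0.20). Fnip1, a partner of folliculin in the control of TFEB and TFE3, was at 6.59 and 6.47 with Shld1, against 6.85 and 7.0 in untreated cells, a difference of -0.39 (SE 0.14). Rptor, which encodes the mTORC1 subunit Raptor, differed by -0.26 (SE 0.15) with Shld1.

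Of 23 autophagy genes, 16 were below 0 with 4OHT and 13 with Shld1. Calcoco1, a receptor for autophagy of the endoplasmic reticulum, was at 6.90 and 6.82 with 4OHT, against 6.60 and 6.61 in untreated cells, a difference of 0.25 (SE 0.14). Atg4b, the protease that processes LC3, differed by -0.31 (SE 0.20) with 4OHT and -0.27 (SE 0.20) with Shld1. Ulk1, the kinase that starts autophagy, differed by -0.21 (SE 0.15) with 4OHT. With Shld1, Uvrag differed by -0.29 (SE 0.16) and Atg5, needed for conjugation of LC3, by -0.19 (SE 0.14).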

How the data were processed

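The deposited table held 1 log2 value per probe set (35556) and array, from single-colour Affymetrix arrays of total RNA; that the scale is log2 was read from the range of the values. Limma 3.14 is listed in the submitters' processing notes with no step attached. The authors' background correction, summarisation and normalization are not given in the sources used here; values were taken as deposited. The 21789 probe sets annotated with 1 gene symbol gave 19938 genes, named through Entrez identifiers, with the brightest probe set per gene. The tests were moderated linear models (limma 3.58.1, R 4.3.3; a mean per group over 6 arrays, empirical Bayes moderation, Benjamini-Hochberg adjustment over all genes, threshold 0.05), a procedure tested on simulated data. The simulated noise was independent between genes and arrays, with no change of a whole array. It therefore does not cover the arrays of narrower range. The fit had 3 residual degrees of freedom, and over genes the SE of a difference had a median of 0.160. The named members are all 32. Of each further list, up to 3 genes of largest moderated statistic per comparison are named. Members and lists were chosen with earlier results of these data known, so no list was tested and no p was adjusted over a list. Some genes of the further lists are not reported here. Alternatives covered normalization, filtering, moderation, weights per array, a block for the replicate number, and left-out arrays.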

Additional observations from a re-analysis of the deposited data

How the results depend on the processing

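Limma called 0 members in each of the 3 comparisons under each of the 16 alternatives run. Over all genes it called 0 as well, except for 1 gene in 4OHT against Shld1 with an intensity trend in the moderation. The median over the members depended on single arrays: with 4OHT it ran from -0.136 to -0.0309 when arrays were left out in turn, with Shld1 from -0.152 to 0.0372, and between the agents from -0.107 to 0.0892. Leaving out both arrays of narrower range (4OHT replicate 1 and Shld1 replicate 2), an alternative chosen after seeing the data as was cyclic loess normalization, gave -0.0309 with 4OHT and 0.0372 with Shld1. Without those arrays Npc1 turned to 0.11 and Npc2 to 0.0097 with Shld1, and Npc1 to -0.20 between the agents. Between the agents, leaving out 1 array at a time gave -0.304 to 0.0448 for Asah1, -0.21 to 0.18 for Ctsd, -0.25 to 0.35 for Npc1 and -0.0697 to 0.392 for Npc2; against untreated cells, Npc1 ran from -0.49 to 0.11 and Npc2 from -0.45 to 0.0097 with Shld1. Between the agents Smpd1 ran from -0.60 to -0.14, Tfeb from 0.27 to 0.71 and Ctsl from 0.15 to 0.37, lowest in size without Shld1 replicate 2. The cause was not tested. Members below 0 with 4OHT numbered 27 as deposited, 21 after quantile normalization, 21 centred on the 75th percentile and 20 after cyclic loess, and with Shld1 26, 22, 22 and 22. Rows with exactly 1 symbol gave the same values by construction. With the replicate number as a block, limma called 0 genes in each comparison. The medians over the members stayed at -0.09, -0.07 and -0.0073 by construction, since each group holds 1 array of each number. The labels share only a number: deviations of same-numbered arrays correlated at 0.0496, -0.0789 and -0.194 across genes. Groups of 2 arrays limit the precision of all values.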
